A study of Mus musculus with 39 samples.

Results

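The cells described here are 22 single liver cells with a bile-duct-like profile, divided by their level of Cd44, the cell surface receptor for the matrix polysaccharide hyaluronan. They were chosen by 3 measured levels: Spp1 (osteopontin, a secreted phosphoprotein of bile duct epithelium) at 100 CPM or more, Apoa1 (the apolipoprotein of high density lipoprotein, made by hepatocytes) under 100 CPM, and Cd44 at or above 100 CPM in 11 Cd44-high cells and below it in 11 Cd44-low cells. CPM stands for the deposited expression value brought back to a linear scale, with the transcripts of a gene summed. The study profiled 39 cells in all, and 17 lie outside this choice. Each cell was a GFP-positive cell sorted from the liver of adult mice of the genotype Krt19CreERT/Rosa26CAG-EGFP and picked singly into lysis buffer. In such mice the Krt19 promoter drives an inducible Cre recombinase that switches on a green reporter for good, so green cells are Krt19-expressing cells or their descendants. The labels name no treatment, inducing dose, age beyond adult, animal, sort or plate, and all 39 cells form 1 group.

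The sides were cut from values of the same cells, which belong to 1 labelled group and are not replicates of a condition. All differences below are therefore descriptions, with no test and no standard error. A difference is the mean log2(CPM + 1) of the Cd44-high cells minus that of the Cd44-low cells. A gene counts as higher or lower when that difference is at least 3 in size, among the 1756 genes that reached 100 CPM in at least 4 of the 22 cells.

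Cd44 binds hyaluronan outside the cell and is anchored inside it to the actin cortex through ezrin, radixin and moesin. It can be cut by the membrane protease Mmp14 and by the ADAM proteases. Its messenger RNA is spliced into a standard form and into longer forms that carry extra exons in the stem of the extracellular part. In liver, Cd44 is known from bile ducts, injury-related duct cells, leukocytes and stellate cells, and quiescent hepatocytes carry little of it.

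The deposited table gives 5 Cd44 transcripts, which differ in what follows the fifth exon. The junctions are shown because they are where the 5 forms part. Each line has the last 15 bases of the fifth exon in lower case and the first 15 bases of the next exon in capitals, read on the transcript strand from the GRCm38 reference with GENCODE M21 exons on chromosome 2.
NM_001039151: gcaccttggccaccaGAGATCGAGACTCAT
NM_001177787: gcaccttggccaccaCACAGAGTCATTCTC
NM_001177786: gcaccttggccaccaATACAGACTCCAGTC
NM_001039150: gcaccttggccaccaCTCCTAATAGTACAG
NM_001177785: gcaccttggccaccaTTGCAAGTACTCCAC
The first is the standard form, with 9 exons, in which the fifth exon joins directly to the stem-proximal exon common to all forms. The other forms insert 2, 3, 5 and 7 further exons in the order listed, adding 297, 399, 645 and 876 bases. All 4 return to the common exon through the same junction, shown here with the common exon in capitals.
Return junction: atggctccttaccagGAGATCGAGACTCAT

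Cd44 itself, whose values chose the sides, ran from 188 CPM in cell 25 through a median of 569 CPM to 2216 CPM in cell 28 among the Cd44-high cells. Among the Cd44-low cells it had a median of 0.368 CPM and was under 1 CPM in 6 of 11. The Cd44-low cells nearest the threshold were cell 27 at 95.6 CPM and cell 13 at 61.0 CPM, and the nearest Cd44-high cell was cell 25, so the gap at the threshold is narrow while most Cd44-low cells lie far below it. Nearest the Spp1 threshold were cell 24 inside at 149 CPM and cell 4 outside at 99.8 CPM, and nearest the Apoa1 threshold was cell 31 inside at 95.0 CPM, the lowest outside among cells with Spp1 being cell 2 at 18400 CPM. Outside the 22 cells, 4 of 17 reached 100 CPM of Cd44, up to 1068 CPM.

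The standard form led in 8 of the 11 Cd44-high cells, and each of the remaining 3 was led by a different longer form. In cell 28, the cell with most Cd44, NM_001177787 held 2215 of 2216 CPM. In cell 19, NM_001177785, the form with all 7 inserted exons, held 100% of 294 CPM. Cell 20 was the mixed one: NM_001177786 took 59.2% of 1058 CPM, NM_001177787 took 21.0%, NM_001039150 took 9.68% and the standard form 8.65%. The leading form held a median of 96.7% of a cell's Cd44 and over 90% in 7 of 11 cells, so most cells were listed with nearly a single form, as the plot of transcript shares shows. NM_001039150 led in no Cd44-high cell. The median share of the standard form was 87.9% over the 11 cells and 41.2% over the 4 cells at 1000 CPM or more, which are cells 18, 20, 28 and 31. In that order their shares were 73.8%, 8.65%, 0% and 99.96%, so the median of the 4 lies near no single cell. The authors' quantification divides reads that fit several forms. The 5 models also differ outside the coding part, with 1753 and 1755 noncoding bases in NM_001039151 and NM_001039150 and 10 to 39 in the others, so the shares do not rest on the junctions alone.

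**Figure D1:**
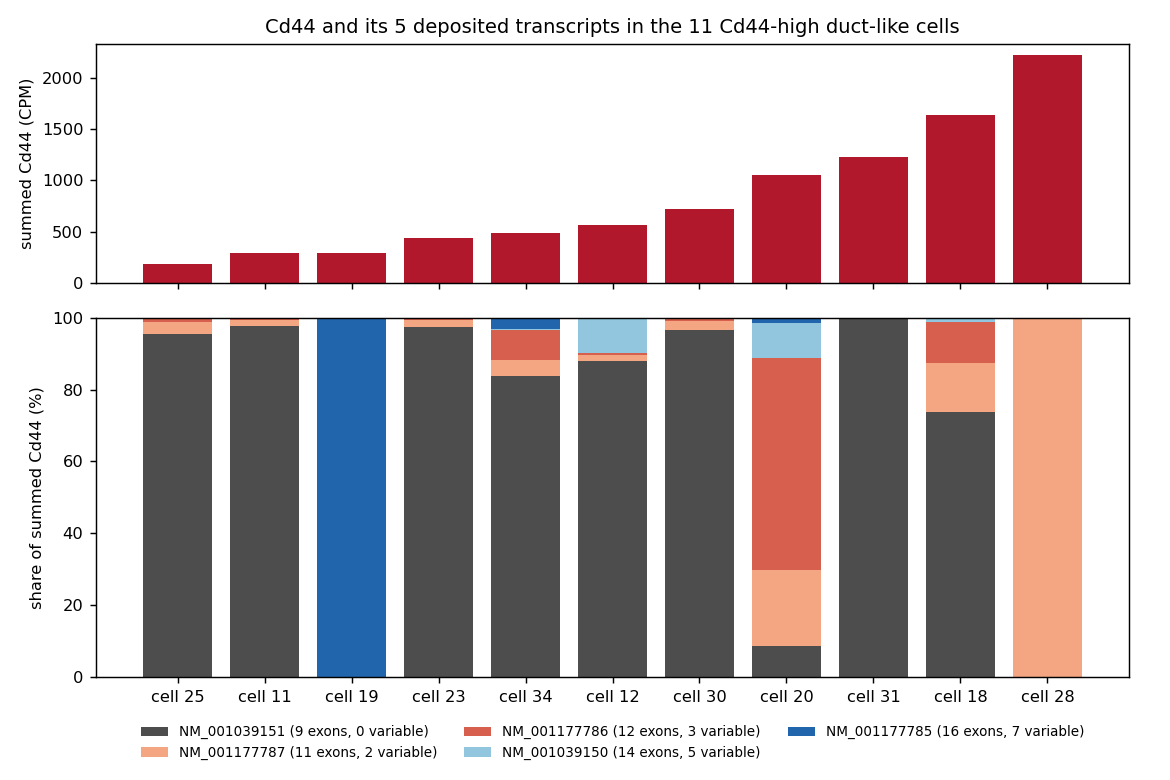
Summed Cd44 (top, CPM) and the share of each deposited Cd44 transcript (bottom, percent) in the 11 Cd44-high cells, ordered by summed Cd44; the legend gives each transcript's exons and how many of them the standard form lacks. Cells 19, 20 and 28 are led by 3 different longer forms and the other 8 by NM_001039151.

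Bile duct genes were at high level on both sides. Leaving out Spp1, which chose the cells, 27 bile duct genes were measured, and every cell had at least 3 of them at 100 CPM. The Cd44-high cells had 8 to 14 of the 27 at that level (median 11) and the Cd44-low cells 6 to 13 (median 11). The count of bile duct genes was not made in the 17 cells outside. Krt18, a keratin of simple epithelium, and Clu, the secreted chaperone clusterin, were at 100 CPM in all 22 cells. They were also at that level in 8 and 10 of the 17 cells outside, so neither is particular to these 22. Clu ran from 6423 to 31269 CPM (median 15524) in Cd44-high cells and from 1307 to 30742 CPM (median 12606) in Cd44-low cells, so the sides overlap fully. Tm4sf4, a tetraspanin-like membrane protein, was at 100 CPM in 10 Cd44-high and 11 Cd44-low cells and in 1 of the 17 cells outside. Sox9 and Epcam, described below, were at 100 CPM in only 4 and 3 cells of each side. Krt19, whose promoter drives the lineage label, was at 100 CPM in 6 Cd44-high and 5 Cd44-low cells, and at 0 in 2 and 4 cells. Spp1 was at 4299 to 83095 CPM (median 13008) in Cd44-high cells and 149 to 50549 CPM (median 25449) in Cd44-low cells.

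Of the 27 bile duct genes, 20 passed the filter, 1 was higher in Cd44-high cells and 0 were lower. The higher one was Tspan8, a tetraspanin, at 100 CPM in 8 against 4 cells with medians of 687 and 22.0 CPM. Over all 1756 genes 11.4% were higher in Cd44-high cells and 1.08% were lower, and the median difference was 0.94. The median of the bile duct genes was 0.30, under that of all genes. Krt23, another keratin, was at 100 CPM in 1 against 4 cells and Pkhd1, the ciliary protein fibrocystin, in 2 against 5. Onecut2, a transcription factor of the duct lineage, was at 100 CPM in 10 against 7.

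The number of genes at high level moved with the split. In the Cd44-high cells 762 to 1196 genes reached 100 CPM (median 1110), and in the Cd44-low cells 581 to 960 (median 736), as the plot against Cd44 shows. Genes at 1 CPM numbered 2322 to 3816 (median 3169) and 1866 to 2964 (median 2597). With this, 72.5% of the 1756 genes had a difference above 0, and a gene list is therefore set beside the all-gene median of 0.94 rather than beside 0. The value that occurred most often among a cell's low values, under 1 CPM, was taken as 1 read. It put 1 CPM at a median of 13.3 reads in Cd44-high cells (range 4.46 to 15.5) and 8.05 reads in Cd44-low cells (range 5.78 to 19.8). At 100 CPM that is 446 to 1554 and 578 to 1979 reads. Rn45s, the ribosomal RNA precursor, took a median of 18.5% and 14.6% of the summed values.

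Sex-linked genes moved with it too. Xist, the RNA of the inactive X chromosome, was at 100 CPM in 1 Cd44-high cell and 6 Cd44-low cells (cells 14, 15, 16, 17, 21 and 26). The Y-linked genes Ddx3y, Eif2s3y and Uty together reached 10 CPM, with Xist under 100 CPM, in 7 Cd44-high cells and 1 Cd44-low cell, and no cell had both. Reads of Xist and of its antisense partner Tsix cannot be told apart here, since no strand setting is given. Marks of both sexes were thus present among the 22 cells, while the labels name no animal, so Cd44 level and animal cannot be told apart. Cells 14 to 17, with consecutive numbers in the labels, were all Cd44-low. The part of gene number, of sex and of this run of cells in the differences below was not tested. Values in cells alike in gene number, in cells with Xist under 100 CPM and without this run are given further on.

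**Figure D2:**
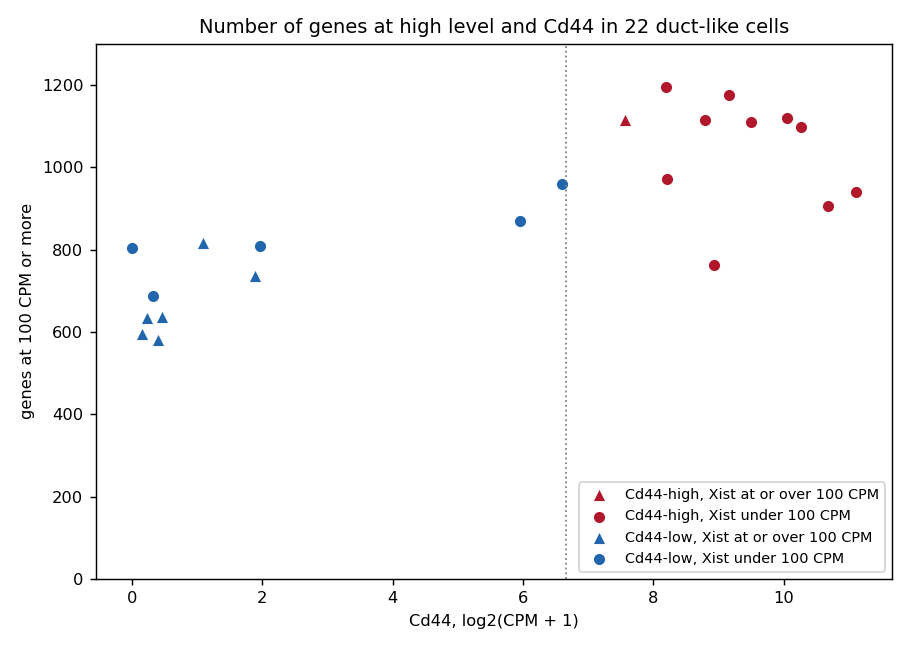
Genes at 100 CPM or more (vertical) against Cd44 as log2(CPM + 1) (horizontal) in the 22 cells, red for Cd44-high, blue for Cd44-low and triangles for Xist at or over 100 CPM; the dotted line is 100 CPM of Cd44. Cd44-high cells have 762 to 1196 such genes and Cd44-low cells 581 to 960, and 6 of the 7 triangles are Cd44-low.

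**Figure D3:**
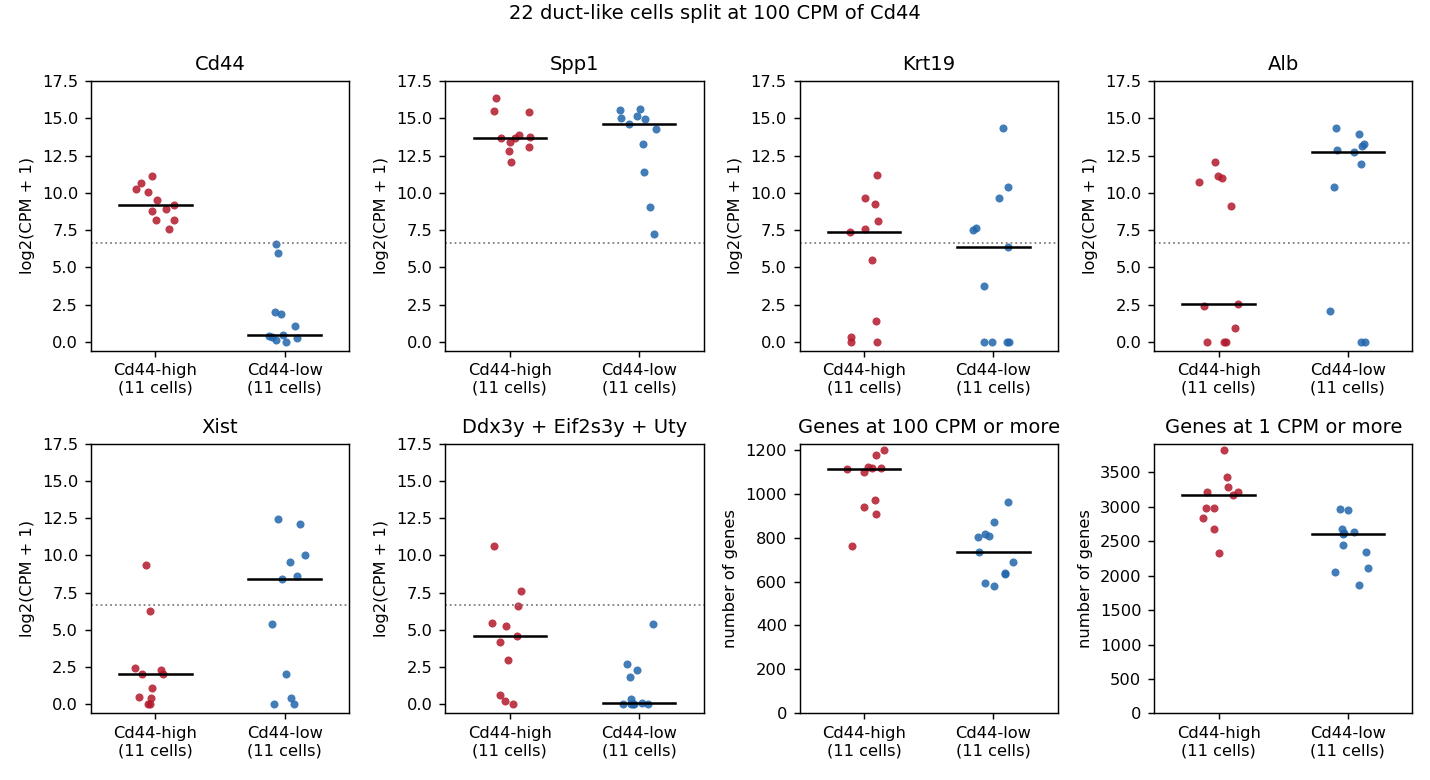
Cd44, Spp1, Krt19, Alb, Xist and summed Y-linked levels as log2(CPM + 1), and genes at 100 and at 1 CPM, with 1 point per cell and a bar at the median of each side; dotted lines mark 100 CPM. Spp1 and Krt19 overlap between the sides, while Xist is at 100 CPM in 1 Cd44-high and 6 Cd44-low cells.

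Among the genes that differed most by the number of cells at 100 CPM, those higher in Cd44-high cells included Tmem176b, Plec, Ctsl and Lamp2, and those lower included Txnip and Pigr. In all, 200 genes had a difference of at least 3 upward and 19 downward. By a rule of at least 5 more cells at 100 CPM, 83 genes (4.73%) stood higher and 9 (0.513%) lower. No gene was at 100 CPM in every Cd44-high cell and in no Cd44-low cell. The widest excess was that of Tmem176b, a membrane protein best known from dendritic cells, at 100 CPM in 9 Cd44-high and 0 Cd44-low cells. It passed the filter through the Cd44-high side alone, so its call follows in part from the filter. It ran from 0 to 2107 CPM (median 307) against 0 to 15.4 CPM (median 1.30). The sides did not separate fully, because 2 Cd44-high cells were under 1 CPM.

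Plec, the giant linker plectin that ties keratin filaments to the cell surface, was at 100 CPM in 10 against 2 cells. Its range was 65.6 to 2084 CPM (median 1364) in Cd44-high cells, and its median was 15.4 CPM in Cd44-low cells, in which the highest cell had 4902 CPM. The sides thus overlapped through a few Cd44-low cells with much Plec. Ctsl, the lysosomal protease cathepsin L, was at 100 CPM in 8 against 1 cells with medians of 285 and 0.0505 CPM. Lamp2, a membrane protein of lysosomes, was at 100 CPM in 8 against 2 cells with medians of 894 and 1.21 CPM and never under 31.4 CPM on the Cd44-high side. Both lysosomal genes had a difference of 6.19.

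Ubr4, a ubiquitin ligase of the N-end rule, was at 100 CPM in 7 Cd44-high cells and 0 Cd44-low cells, where its highest value was 5.60 CPM. Ubr4 too passed the filter through the Cd44-high side alone. Calr, the calcium-binding chaperone calreticulin of the endoplasmic reticulum, was at 100 CPM in 8 against 1 cells with a difference of 4.63. Gnb1, a G protein beta subunit, was in 10 against 3 cells. Rnh1, the ribonuclease inhibitor, was in 7 against 1 with medians of 482 and 0 CPM. Gc, the vitamin D-binding protein that hepatocytes secrete, was in 7 against 1 with medians of 1205 and 0 CPM. Rgs5, a regulator of G protein signalling often used to mark pericytes, was in 7 against 1 with medians of 515 and 0.166 CPM. Rpl24, a ribosomal protein gene with near-identical copies in the genome and so uncertain, was in 8 against 1.

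**Figure D4:**
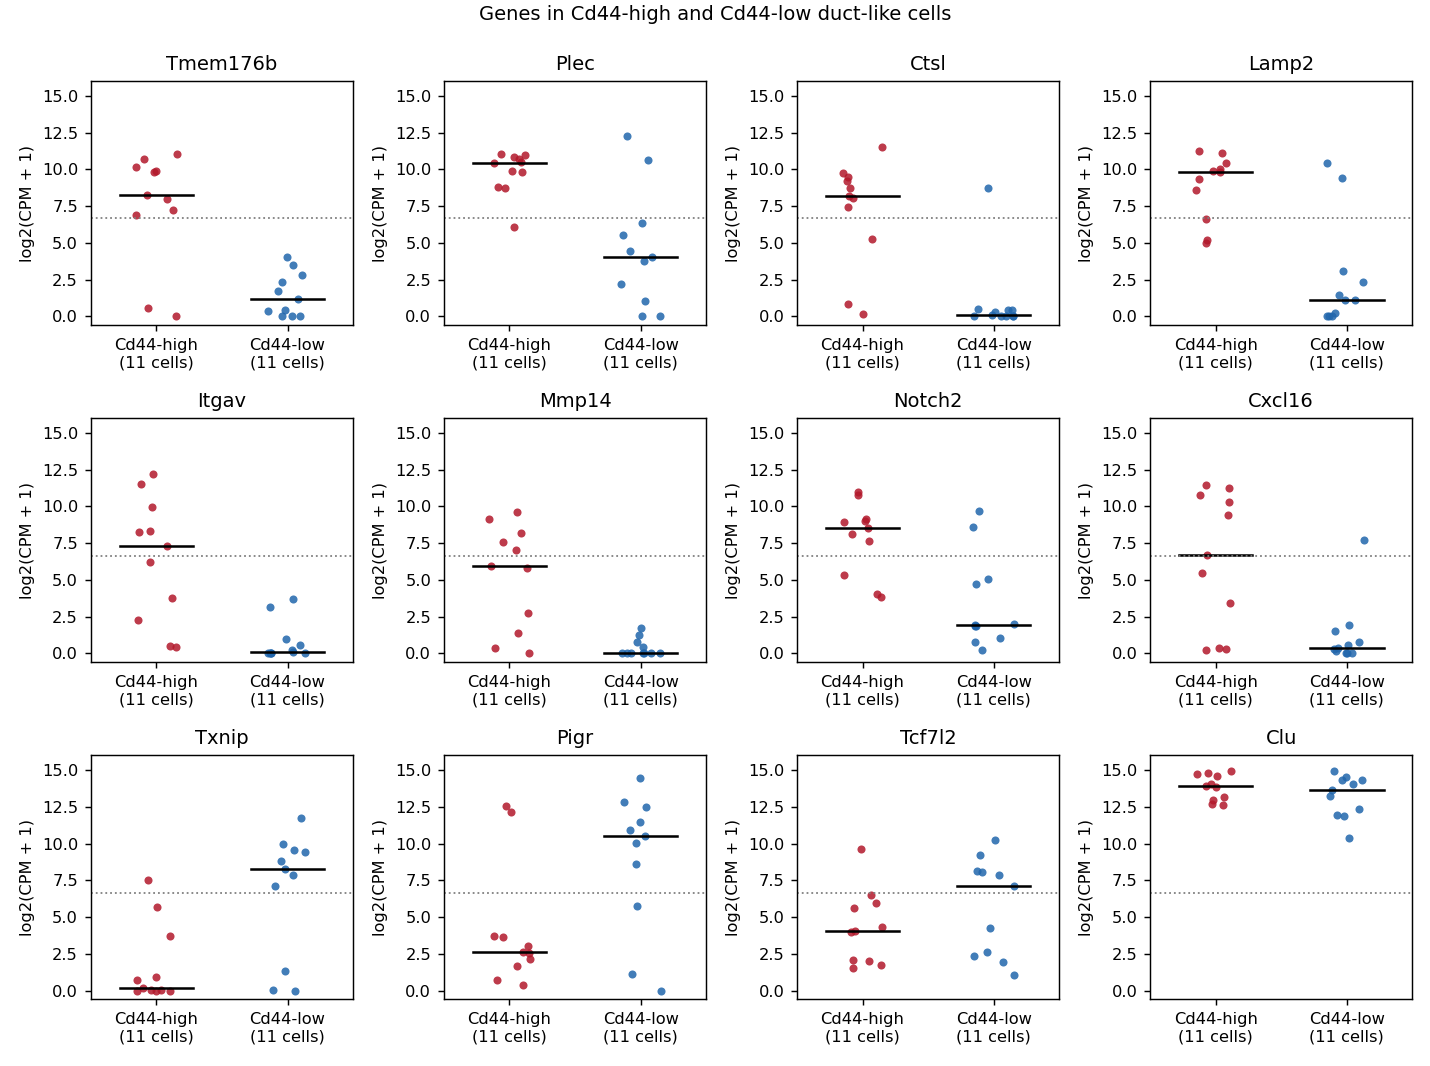
Levels of 12 genes as log2(CPM + 1), with 1 point per cell, a bar at the median of each side and a dotted line at 100 CPM. Tmem176b, Itgav and Mmp14 reach 100 CPM on the Cd44-high side alone, Txnip and Pigr lie lower there, and Clu is at 100 CPM in all cells.

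The genes lower in Cd44-high cells were led by Txnip, the thioredoxin-binding protein that restrains glucose uptake. It was at 100 CPM in 1 Cd44-high cell and 8 Cd44-low cells, ranging from 0 to 183 CPM (median 0.112) and from 0 to 3429 CPM (median 303). Pigr, the receptor that carries immunoglobulin A across duct epithelium into bile, was at 100 CPM in 2 against 8 cells with medians of 5.30 and 1474 CPM. For both genes the sides overlap, since 3 Cd44-low cells were under 100 CPM for each. Tgtp1, an interferon-induced GTPase with a near-identical neighbour and so uncertain, was at 100 CPM in 1 against 6 cells.

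Nfib, a transcription factor of the nuclear factor I family, was at 100 CPM in 5 against 10 cells and was above 1 CPM in all 11 Cd44-high cells, with a difference of -2.28. Tcf7l2, the DNA-binding partner of beta-catenin, was at 100 CPM in 1 against 6 cells with a difference of -1.41, so its excess lies in cells past the threshold more than in the mean. Stxbp2, a syntaxin-binding protein of secretion, was at 100 CPM in 0 against 5 cells. Rbbp6, a ubiquitin ligase that binds Rb, and Ccdc12, a coiled-coil protein, were each in 0 against 4 cells with differences of -4.00 and -3.46. Stxbp2, Rbbp6 and Ccdc12 passed the filter through the Cd44-low side alone. Cmah, the enzyme that makes glycolylneuraminic acid, was in 1 against 5 cells with a difference of -3.37. A further pair of symbols met the naming rule and are uncertain as members of large families: Vmn1r58, a vomeronasal receptor gene, in 0 against 5 cells, and Rpl34-ps1, a ribosomal protein pseudogene, in 0 against 5 cells with a mean difference of 0.57 in the other direction.

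No gene that makes hyaluronan was among those measured for the hyaluronan list. Of 25 measured genes that break or bind hyaluronan or that bind, anchor or cut Cd44, 12 passed the filter. Their median difference was 1.01 beside 0.94 for all genes. Among the 12, 2 were higher in Cd44-high cells (11.4% over all genes) and 0 lower (1.08% over all genes). Both called genes passed the filter through the Cd44-high side alone, as did 89 of the 1756 genes, 69 of them called higher, so that their call follows in part from the filter. The 2 higher ones were Mmp14, the membrane protease that can cut Cd44, and Msn, the actin linker moesin. Mmp14 was at 100 CPM in 5 Cd44-high cells and 0 Cd44-low cells, with 0 to 794 CPM (median 62.0) against 0 to 2.30 CPM (median 0) and a difference of 4.87. Msn was likewise at 100 CPM in 5 and 0 cells, with a highest value of 1028 CPM against 7.03 CPM and a difference of 3.71. On both genes the Cd44-low cells were all low, while the Cd44-high cells were divided.

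The other 2 actin linkers were Ezr (ezrin), at 100 CPM in 7 against 3 cells with a difference of 2.59, and Rdx (radixin), in 2 against 2 cells. Slc9a3r1, the scaffold that ezrin recruits, was in 4 against 2 cells, and the cytoskeletal adaptors Ank3 and Iqgap1 were in 6 against 5 and 4 against 5. Ankrd11, listed as an ankyrin repeat protein, was in 4 against 2. The sheddase Adam10 was in 4 against 2 cells and the secreted protease Mmp7 in 2 against 2. Cd74, the receptor for the cytokine MIF that signals with Cd44, was in 4 against 3 cells and Lgals9, a galectin that binds Cd44, in 4 against 5. Ncstn, a subunit of the gamma-secretase that cuts the Cd44 stub, was in 3 against 0 cells and so under the filter, as were the remaining 12 genes, among them Hyal2 (1 against 0), Tmem2 (1 against 1), Met (1 against 0) and Adam17 (0 against 2). Hmmr, a further hyaluronan receptor, was at 100 CPM in 0 cells of either side, with 48.1 CPM as the highest Cd44-high value and 49.5 CPM as the highest Cd44-low value. Stab1, a scavenger receptor for hyaluronan, was listed at 0 in all 22 cells.

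Of 14 measured splicing regulators reported to act on the extra Cd44 exons, 7 passed the filter, with a median difference of 1.25. Among the 7, 0 were higher and 0 lower, beside 11.4% and 1.08% of all genes. With so few members, nothing about the list is read from these counts. Ybx1, a cold-shock domain RNA-binding protein, was at 100 CPM in 8 against 5 cells, Hnrnpm in 3 against 2 and Mbnl1 in 6 against 5. Esrp2, the epithelial splicing regulator, was at 100 CPM in 0 cells of either side and highest at 40.6 CPM. In Srrm1, a splicing coactivator, the count was 2 against 4.

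Of 17 measured genes reported in adult liver progenitors, 8 passed the filter, and their median difference of 0.94 equalled that of all genes to 2 decimals. Among the 8, 0 were higher and 0 lower, beside 11.4% and 1.08% of all genes. Nothing about this short list is read from these counts. Sox9, a transcription factor of ducts, was at 100 CPM in 4 cells of each side and Epcam, an epithelial adhesion protein, in 3 of each. Prom1, also called CD133, was in 5 against 3 cells, Lcn2, the iron-carrier binder lipocalin 2, in 7 against 5, and Cd24a in 8 against 6. Tnfrsf12a, the receptor of TWEAK, was in 3 against 3, Sox4 in 2 against 4 and Icam1 in 2 against 3. Of the 9 under the filter, Lgr5, Thy1, Kit and Cd34 were at 100 CPM in 0 cells of both sides, and Fgfr2 and Anpep were each in 0 against 3.

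Several adhesion genes were at high level in Cd44-high cells. Of 24 measured integrin and basement membrane genes, 18 passed the filter, with a median difference of 2.23 and 16 above 0 (72.5% over all genes). Among the 18, 5 were higher in Cd44-high cells (11.4% over all genes) and 0 lower (1.08% over all genes). Of the 5, Itgav, Itgb1 and Col18a1 passed the filter through the Cd44-high side alone, so the count and the median rest in part on that choice. Itgav, the integrin alpha V chain that binds osteopontin and fibronectin, was at 100 CPM in 6 against 0 cells with 0.343 to 4670 CPM (median 160) against 0 to 11.8 CPM (median 0.0679). Itgb1, its beta 1 partner chain, was in 4 against 0 cells with a difference of 4.05. Lama5, a laminin chain of epithelial basement membrane, was in 5 against 1, and Col18a1, the collagen that yields endostatin, in 4 against 0. Fn1, fibronectin, was in 9 against 3 cells with medians of 645 and 3.68 CPM. The highest Cd44-low cell had 11.8 CPM of Itgav, 32.4 CPM of Itgb1 and 2.24 CPM of Col18a1, while on the Cd44-high side the cells past 100 CPM numbered 4 to 6. Itgb1, Col18a1 and Jup, below, were named after their values were seen, as the rule took 3 genes per list.

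Of 23 measured genes of epithelial junctions and polarity, 16 passed the filter. All 16 had a difference above 0 (72.5% over all genes), with a median of 1.94. Among them 4 were higher (11.4% over all genes) and 0 lower (1.08% over all genes). Of the 4, Tjp1 passed the filter through the Cd44-high side alone. Cldn2, the pore-forming claudin of leaky epithelia, was at 100 CPM in 7 against 2 cells with medians of 412 and 0.0679 CPM. Tjp1, the tight junction scaffold ZO-1, was in 5 against 0 cells, with 280 and 46.1 CPM as the highest values. Ctnna1, alpha-catenin, which links cadherins to actin, was in 6 against 3 and Jup, plakoglobin, in 7 against 3. E-cadherin itself (Cdh1, named after its values were seen) was at 100 CPM in 10 against 6 cells with a difference of 1.92. The Cd44-high cells had 5 to 13 of the 23 at 100 CPM (median 9) and the Cd44-low cells 1 to 7 (median 5).

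A list of genes linked with mesenchymal transition had 14 members measured and 7 past the filter, with a median of 2.49. Among the 7, 3 were higher (11.4% over all genes) and 0 lower (1.08% over all genes). The 3 were Fn1, given above, Sparc, a matrix glycoprotein, at 100 CPM in 4 against 1 cells, and Lgals1, a galectin, in 8 against 3. None of the 3 is a transcription factor of that transition. This list shares Fn1 with the integrin list and Cdh2, N-cadherin, with the junction list, so the lists are not independent.

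Of 29 measured NF-kB targets, chemokines and cytokine signalling genes, 14 passed the filter, with a median of 1.95. Among the 14, 3 were higher (11.4% over all genes) and 0 lower (1.08% over all genes). All 3 encode chemokines. Cxcl16, a membrane-bound chemokine, was at 100 CPM in 6 against 1 cells with medians of 101 and 0.278 CPM. Cxcl5, which attracts neutrophils and passed the filter through the Cd44-high side alone, was in 5 against 0 cells, with 1434 and 1.56 CPM as the highest values. Ccl2, which attracts monocytes, was in 6 against 1 with medians of 201 and 0.829 CPM. Nfkbia, the NF-kB inhibitor and target (named after its values were seen), was at 100 CPM in 6 cells of each side with a difference of -0.14.

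In each signalling list 1 gene was called higher, out of 4 to 10 members past the filter and beside 11.4% of all genes, and nothing about the lists is read from these counts. Of 10 measured Notch genes 4 passed the filter, and Notch2, the receptor that directs duct formation, was at 100 CPM in 8 against 2 cells. Its range was 13.1 to 2052 CPM (median 370) against 0.203 to 832 CPM (median 2.85), a difference of 4.42, and it was the 1 gene higher, with 0 lower. Its ligand Jag1 was in 5 against 1 cells. Of 24 measured Hippo genes 7 passed, with a median of 0.55, and 1 was higher: Wwtr1, the coactivator TAZ, in 5 against 1 cells. The TAZ and YAP targets Ctgf and Cyr61 were in 5 against 0 and 7 against 8 cells. Of 28 measured Wnt genes 10 passed, with a median of 1.02, and 1 was higher: Apc, the scaffold that promotes beta-catenin breakdown, in 4 against 1 cells. Of 23 measured growth factor signalling genes 6 passed, with a median of -0.33, and 1 was higher: Phlda1, in 5 against 0. Phlda1 and Ctgf passed the filter through the Cd44-high side alone. Hbegf, an EGF receptor ligand, was in 7 against 9. Jag1, Ctgf, Cyr61 and Hbegf were named after their values were seen.

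Immediate early genes, which also respond to dissociation of tissue, lay below the all-gene median. Of 41 measured, 28 passed the filter, and the median difference was -0.37. Among the 28, 3 were higher (11.4% over all genes) and 0 lower (1.08% over all genes). The 3 were Ppp1r15a, the stress-induced phosphatase subunit GADD34, in 8 against 2 cells, Ier3, in 6 against 2, and Klf4, a transcription factor, in 7 against 2. The AP-1 members differed in direction: Fos, Fosb, Jun and Jund had differences of -1.59, -2.18, -1.33 and -1.31, and Junb and Fosl2 of 0.68 and 2.25. Atf3 and Nr4a1 had differences of -2.15 and -2.86. Fos and Jun were at 100 CPM in at least 10 cells of each side, with medians of 3264 and 7358 CPM for Fos and 2476 and 4306 CPM for Jun, so both sides carried them at high level. The genes after Klf4 were named after their values were seen.

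**Figure D5:**
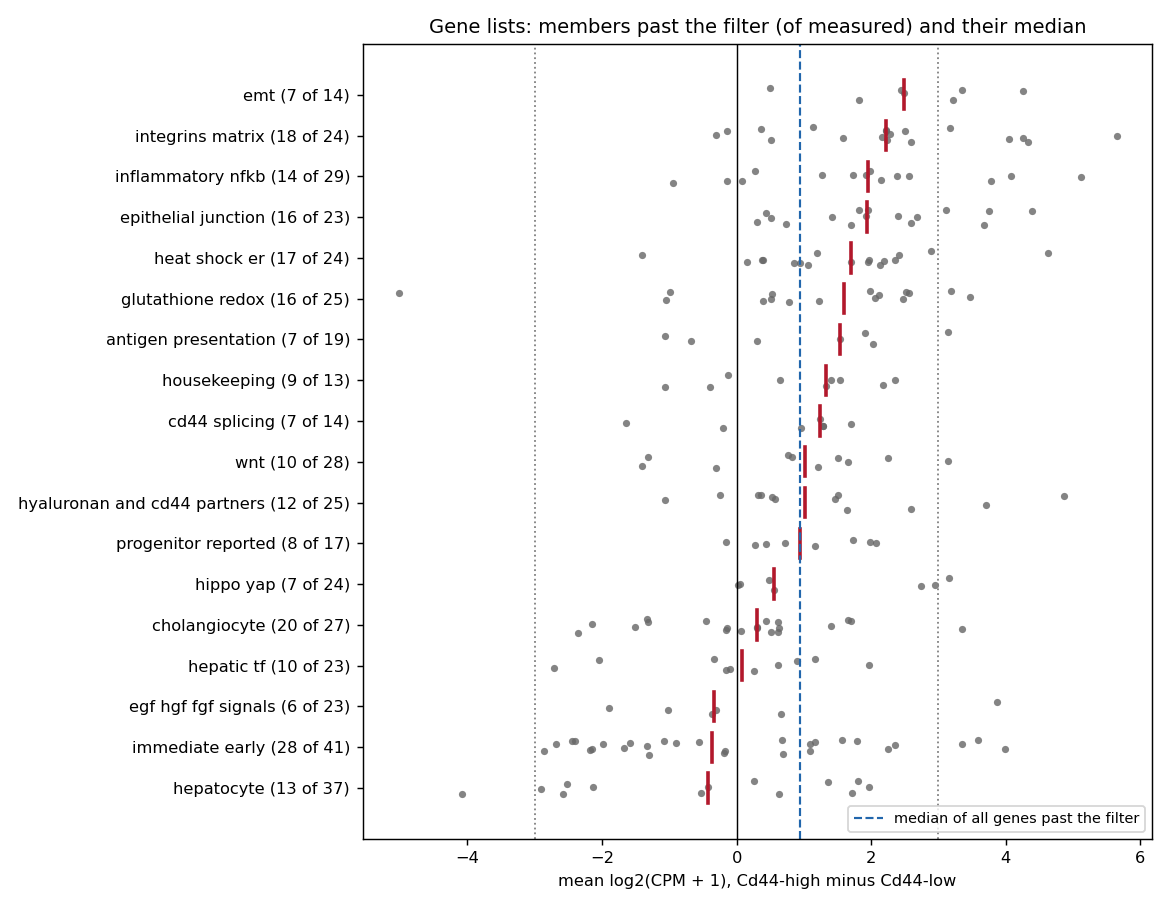
Difference in mean log2(CPM + 1), Cd44-high minus Cd44-low, for the members past the filter (points) of each list with at least 5 of them, with the list median in red; the dashed line is the all-gene median of 0.94 and the dotted lines are 3 and -3. Mesenchymal transition, integrin, NF-kB and junction lists have the highest medians, 2.49 to 1.94, and hepatocyte and immediate early lists the lowest, -0.43 and -0.37.

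Albumin had a lower median in Cd44-high cells, with wide overlap, and its direction turned in part of the cells. Apoa1 chose the cells and is left out. Of 37 other hepatocyte genes 13 passed the filter, 6 were above 0 (72.5% over all genes), and the median was -0.43. Among the 13, 0 were higher (11.4% over all genes) and 1 lower (1.08% over all genes). The lower one was Alb, serum albumin, at 100 CPM in 5 against 8 cells, from 0 to 4206 CPM (median 4.69) in Cd44-high and from 0 to 20694 CPM (median 6974) in Cd44-low cells. Its difference of -4.08 became 2.20 in cells alike in gene number, 0.78 in cells with Xist under 100 CPM and 1.34 with Cd44 split at 1000 CPM. Ahsg (fetuin A), Apoe and Ttr (transthyretin), named after their values were seen, were at 100 CPM in 3 against 7, 4 against 8 and 5 against 8 cells. Other secreted liver proteins had more cells on the Cd44-high side: Apob, the apolipoprotein of low density lipoprotein, in 6 against 3, Ambp in 8 against 5, Hp, haptoglobin, in 4 against 2 and Serpina1b in 3 against 1, with differences of 1.97, 1.72, 1.36 and 1.81. At least 3 hepatocyte genes were at 100 CPM in 7 Cd44-high and 8 Cd44-low cells. The summed level of the 37 was 268 to 56121 CPM (median 6533) and 246 to 45685 CPM (median 13188). Fabp1, Cyp3a11, Cyp2c29 and G6pc, genes of mature hepatocytes, were under 1 CPM in all 22 cells.

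Genes of stress defence and protein folding had medians above that of all genes. Over all genes 72.5% were above 0, 11.4% were higher and 1.08% were lower. Of 25 measured glutathione and redox genes 16 passed the filter, with a median of 1.60, 13 above 0, 2 higher and 1 lower. The higher ones were the peroxiredoxins Prdx2, in 5 against 4 cells, and Prdx6, in 4 against 1, and the lower one was Txnip. Of 24 measured heat shock and chaperone genes 17 passed with a median of 1.71, 16 were above 0, and Calr alone was called. The member below 0 was Hspa5, the main chaperone of the endoplasmic reticulum, in 8 against 10 cells. In cells alike in gene number the list medians minus the all-gene median were -0.77 for the redox genes and -0.63 for the chaperones. Of 19 measured antigen presentation genes 7 passed, with a median of 1.53, and Tapbp, tapasin, was higher in 7 against 3 cells. Of 16 measured bile transport genes 4 passed, and the chloride channel gene Ano1 was higher in 4 against 1.

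Few cell cycle genes passed the filter. Of 20 measured, 2 passed the filter, 0 were higher and 0 lower: Pcna, the replication clamp, in 4 against 2 cells, and Tyms, thymidylate synthase, in 2 against 3. Mki67 was at 100 CPM in 0 of the 22 cells. Of 14 arrest genes 4 passed and 0 were called in either direction, with Cdkn1a, the inhibitor p21, in 1 against 3. Of 23 measured liver and duct transcription factors 10 passed, with 0 called and a median of 0.08. Of 13 housekeeping genes 9 passed, with 0 called and a median of 1.32, and Actb, Eef1a1 and Gapdh had differences of -0.39, -0.13 and -1.06. Over all genes 11.4% were higher and 1.08% lower, and nothing about these short lists is read from their counts of called genes.

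Markers of other liver cells were sparse, and some moved with the split. Of 10 measured macrophage genes, Cd14 alone passed the filter, at 100 CPM in 7 Cd44-high and 1 Cd44-low cells with a difference of 5.14. Csf1r, the receptor macrophages need, was at 100 CPM in 2 against 1 cells and at 1 CPM in 3 against 6. C1qb was at 1 CPM in 1 Cd44-high cell, Emr1, Clec4f, C1qa, C1qc and Vsig4 were under 1 CPM in all 22 cells, and Lyz2 did not pass 10.4 CPM. The summed macrophage list was 0.768 to 4688 CPM (median 368) in Cd44-high and 0 to 1268 CPM (median 7.12) in Cd44-low cells. Of 13 fibroblast and stellate cell genes 2 passed, Rgs5 and Fbln2, a fibulin, both higher, while Col1a1, Col6a1, Lrat and Fbln1 were under 1 CPM in all Cd44-high cells. Dcn was at 1 CPM in 3 against 2 cells, Col1a2 in 3 against 1 and Col3a1 in 2 against 1. Ngfr was at 1 CPM in 3 against 6 and Acta2 in 2 against 4, and Reln was at 100 CPM in 1 cell of each side. At least 3 genes of the list reached 10 CPM in 1 Cd44-high and 0 Cd44-low cells. That list summed to 8.65 to 4148 CPM (median 1579) against 1.15 to 3479 CPM (median 9.08). The 11 mesothelial genes summed to 1.59 to 1407 CPM (median 272) against 0 to 127 CPM (median 1.21), with Msln (mesothelin) at 100 CPM in 3 against 0 cells and Cav1 and Podxl each in 2 against 0, while Upk3b, Upk1b and Wt1 were under 1 CPM in all Cd44-high cells. The part of these cell types' genes in the differences above was not tested. No mesothelial, endothelial, granulocyte, leukocyte, lymphocyte or erythroid gene passed the filter, and no cell had 3 mesothelial, fibroblast, macrophage or leukocyte genes at 100 CPM. Only part of some lists was measured: 3 of 12 endothelial, 3 of 17 lymphocyte, 2 of 9 erythroid and platelet and 8 of 12 leukocyte genes. For those types the values say little about whether such cells were present.

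The differences were then computed in smaller sets of cells, chosen by the measures that moved with the split. The number of genes at 100 CPM lay between 762 and 960, the range both sides share, in 3 Cd44-high and 5 Cd44-low cells. Among them 252 of the 1756 genes were higher and 220 lower, and the median difference was -0.07. The excess of higher over lower genes was thus smaller in these 8 cells, where 53.4% of the calls were upward against 91.3% in all 22. Quantile normalisation, which gives every cell the same distribution of values, left 109 higher and 50 lower with a median of 0.27. In the 10 Cd44-high and 5 Cd44-low cells with Xist under 100 CPM, 202 genes were higher and 70 lower, and without cells 14 to 17 the counts were 166 and 31. Cells with Xist under 100 CPM still differed in sex marks. Among them, the Y-linked genes together reached 10 CPM in 7 Cd44-high cells and 1 Cd44-low cell.

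Of the 49 named genes past a difference of 3, 46 kept their direction in the 8 cells alike in gene number, which are a subset of the cells the genes were called in. Past 3 in the same direction were 32 of the 49 there and 30 of the 49 in cells with Xist under 100 CPM. In the 8 cells alike in gene number Itgav had a difference of 9.34, Fn1 of 8.98, Ctsl of 6.55, Cxcl16 of 6.74, Notch2 of 6.04, Mmp14 of 5.48, Tjp1 of 4.38 and Txnip of -7.38. In the cells with Xist under 100 CPM these were 4.40, 6.04, 5.15, 4.87, 6.41, 4.78, 4.31 and -6.11. Itgav, Mmp14 and Tjp1 passed the filter through the Cd44-high side alone, so their values in both sets of cells follow in part from the filter. Other genes were no longer past 3 in the 8 cells, among them Tspan8 at 0.06, Ano1 at 0.38, Klf4 at 0.81, Tapbp at 1.56, Sparc at 1.76, Ctnna1 at 1.85 and Msn at 2.07, and Ccl2 was under 3 as well. Alb turned, at 2.20 and 0.78, Cmah turned at 0.51 and Tgtp1 at 0.75 in the cells alike in gene number, and Xist itself was at -0.04 there. The medians of the integrin, junction, mesenchymal transition and NF-kB lists lay above the all-gene median in all 11 settings compared, by 1.29, 1.00, 1.55 and 1.02 as first given. The junction list was only 0.06 above it with Cd44 split at 1000 CPM. The hyaluronan list lay above it in 9, the progenitor list in 6 and the splicing list in 6 of the 11, and the immediate early list in 0. The first-given setting is among the 11, and the settings share cells, so they are not independent. As first given, 3 of 18 integrin, 1 of 16 junction, 1 of 14 NF-kB and 0 of 7 mesenchymal transition genes passed through the Cd44-high side alone. The first 3 of these list medians thus rest in part on the filter.

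Where the Cd44 threshold was moved, some genes turned. With the split at 1000 CPM, which sets 4 cells against 18, Tmem176b had a difference of -0.69, Tspan8 of -2.10 and Tapbp of -2.84, and Mmp14, Rnh1 and Cxcl5 were at 0.44, 0.65 and 0.03. Across these 6 genes the 4 cells with most Cd44 were lower than, or within 0.65 of, the other 18 in mean log2(CPM + 1). Ctsl, Plec, Notch2, Itgav and Fn1 stayed above 3 at that split, at 5.54, 3.89, 3.03, 4.53 and 5.15, and Txnip and Pigr stayed below -3, at -4.89 and -4.75. Lamp2 fell from 6.19 to 2.12, Prdx2 from 3.47 to 0.84, Ano1 from 3.19 to 1.31 and Sparc from 3.36 to 0.05. Of the 49 named genes past a difference of 3, 28 were still past it in the same direction at that split.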

How the data were processed

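RNA of 39 single cells was sequenced. Per the submitters' processing notes, Bowtie 0.12.9, eXpress 1.5.1, edgeR and the build mm9 were used, with no order or settings given. The deposited values are log2 expression values per RefSeq transcript. Their minimum, -2.58, is shared by all cells and was taken as no reads, so CPM was computed as 2 to the value minus 0.167. The unit is inferred: the geometric mean of the summed values per cell is 1029230. Transcripts were summed per symbol (10061 symbols). The reads behind 1 CPM come from the most frequent value under 1 CPM in each cell, and other depth measures are not given in the sources used here. Values were not turned back into counts, and no cell was removed or called as a doublet. No pair of cells held identical values.

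Means of log2(CPM + 1) were compared between the sides, with a pseudocount of 1 CPM, genes at 100 CPM in at least 4 of 22 cells, and without Cd44, Spp1 and Apoa1. The differences understate low genes. Named genes were the 12 with the largest excess of cells at 100 CPM in each direction, the hyaluronan, splicing and progenitor lists in full, up to 3 called genes per direction of each other list, Cd44, Spp1, Apoa1, Krt19 and Alb. Genes named beyond that are list members picked after their values were seen. Members and lists were chosen with earlier results of these data known. All 30 lists were computed. The computation was tested on simulated data. Python 3.11.15, numpy 2.4.6 and pandas 2.3.3 were used. Junction sequences come from GRCm38, which is not the authors' build, so no coordinates are given.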

Additional observations from a re-analysis of the deposited data

How the results depend on the processing

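Higher and lower genes numbered 200 and 19. With a pseudocount of 0.1 CPM they were 379 and 44, with 10 CPM 28 and 4, at a difference of 4 they were 54 and 5, and by at least 5 more cells at 100 CPM 83 and 9. With Cd44 split at 1000 CPM they were 239 and 36, with 84 of the 200 shared, and at 10 CPM 232 and 26, with 130 shared. Quantile normalisation (109 and 50), cells alike in gene number (252 and 220), cells with Xist under 100 CPM (202 and 70) and leaving out cells 14 to 17 (166 and 31) were chosen after seeing the data. Of the 200 genes, 108, 100, 112 and 125 were called under these 4. Each fewer-cell setting kept the 1756 genes, a choice made after a first form, with the filter applied anew, had given 46 and 45, 162 and 49, and 157 and 27. The cause was not tested. Leaving out each cell in turn gave 181 to 231 higher, 17 to 25 lower and median differences of 0.87 to 1.05. Over 49 called named genes, 10 of 441 values under the other alternatives turned. Genes chosen for a difference of 3 can hardly turn when 1 of 11 cells is left out, so that range shows no stability of direction. The values that turned were Alb (1.34 at the 1000 CPM split, 2.20 and 0.78), Cmah (0.85 at that split, 0.51), Tapbp (-2.84), Tgtp1 (0.75), Tmem176b (-0.69), Tspan8 (-2.10) and Xist (0.13). The ratio of median genes was 1.51 at 100 CPM and 1.22 at 1 CPM. The standard Cd44 form had a median share of 41.2% in the 4 cells at 1000 CPM or more, in which it ran from 0% to 99.96%. No paired analysis was possible because the cells form 1 group and their numbers pair nothing.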
